A study of Mus musculus with 4 samples.

Results

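The genes described here carry the symbols of the constitutive proteasome subunits and were measured in mouse embryonic stem cells that carried a conditional or a knocked-out allele of the histone demethylase UTX (Kdm6a). Members were all genes whose symbol is Psma, Psmb, Psmc or Psmd followed by a number, without the immunoproteasome genes Psmb8, Psmb9 and Psmb10. This rule took 36 of the 18193 genes with a probe set of their own on the array, through 74 probe sets, and all 36 were found in the RefSeq gene table. Of these, 16 belong to the core (Psma and Psmb) and 20 to the cap (Psmc and Psmd). The brightest probe set of a gene stood for it. Pairs of signals below are those of line 1 and then line 2 of a group. Among the 36 genes, 35 passed a filter that left out the dimmest 40% of genes, 15 of the core and 20 of the cap. The member that did not pass was Psmb11, the subunit of the thymus proteasome. The rule by symbol also takes in Psma8, known from the testis, and the assembly chaperones Psmd5, Psmd9 and Psmd10, which are described apart.

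The study hybridised total RNA from 4 lines of embryonic stem cells to Affymetrix Mouse Genome arrays, 1 array per line. The control group was UTX conditional knockout (cKO) lines 1 and 2, and the comparison group was UTX knockout (KO) lines 1 and 2. All 4 lines were grown in serum and LIF, first on irradiated fibroblast feeders and then on gelatin. The labels give neither the deleted exons nor the Cre, and they do not say whether RNA came from separate cultures. Each p-value therefore rests on the spread between the lines within the groups, which may be partly technical. In limma this spread was also drawn towards that of genes of similar signal, with 2 residual and 5.08 prior degrees of freedom. With 2 lines against 2 an exact two-sided permutation test cannot go below 0.333.

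The proteasome is the protease that degrades proteins tagged with ubiquitin. Its core is a barrel of stacked rings: the outer rings are built from alpha subunits (Psma genes), which gate the entry, and the inner rings from beta subunits (Psmb genes), of which Psmb5, Psmb6 and Psmb7 carry the active sites. The cap binds the barrel's ends, and its ATPases (Psmc genes) unfold the substrate while the non-ATPase subunits (Psmd genes) bind ubiquitin, remove it and hold the cap together. Pluripotent cells are known for high proteasome activity, and the transcription factor NRF1 (Nfe2l1) raises the subunit genes together when the proteasome is inhibited.

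The deposited signals had a common trimmed mean, and the median signal over all probe sets lay between 64.4 and 81.6. All 7 pluripotency markers were past the filter, and their summed signal lay between 72449 and 72618 in the cKO lines and between 75703 and 81278 in the KO lines. Of 12 feeder fibroblast markers 11 were measured and 6 passed the filter, with summed signals of 3314 and 2111 in cKO against 1340 and 1319 in KO. In such bulk samples fewer cells of a type and less RNA per cell cannot be told apart. None of the 11 was at 0, while Col6a1, Lum, Postn, Pdgfrb and Twist2 lay below the filter level, and 1 of the 6 tested was called, lower in KO. The part of these fibroblast transcripts in the results below was not tested. Kdm6a itself read 658 and 415 in cKO against 265 and 198 in KO, at -1.17 in log2 (adjusted p = 0.0891 in limma). With its 4 probe sets averaged it was at -0.57 (adjusted p = 0.482 in limma). It passed an adjusted p under 0.05 in limma when same line numbers were treated as pairs, which the labels do not give. The position of its probes relative to the deletion was not used here.

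The promoters of the subunits were searched for the antioxidant response element, the site that NRF1 and NRF2 bind, written TGACNNNGC and searched on both strands of the windows from 250 bases before to 50 after the start in the RefSeq table (build GRCm38.p6). Windows were given for 29 of the 36 members (31 windows), and 5 of the 31 held the letters (16.1%, exact 95% interval 5.45 to 33.7%), against 12.4% of all 32851 windows. The CCAAT box, searched as CCAAT on both strands, was in 12 of the 31 (38.7%) and in 37.4% of all windows. The motifs were counted apart, whether or not matches overlapped. A match describes the letters only.

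The 5 stretches that hold TGACNNNGC are shown so that the letters found can be read, and no link to the levels of Nfe2l1 or Nfe2l2 was tested. Each is printed 5′ to 3′ on the gene's strand with up to 45 flanking bases on each side and none past the start of transcription, and capitals mark the match, which in Psmd12 and Psmc6 lies on the opposite strand.
Psmb5 (chr14:54617996-54618087, minus strand): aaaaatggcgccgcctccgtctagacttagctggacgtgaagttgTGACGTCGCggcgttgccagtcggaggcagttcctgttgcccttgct
Psmb6 (chr11:70525303-70525356, plus strand): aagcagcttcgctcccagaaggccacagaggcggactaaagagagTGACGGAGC
Psmd9 (chr5:123228114-123228189, plus strand): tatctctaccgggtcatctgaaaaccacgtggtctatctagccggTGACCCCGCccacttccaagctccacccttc
Psmd12 (chr11:107479278-107479334, plus strand): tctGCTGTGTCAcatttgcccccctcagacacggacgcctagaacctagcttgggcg
Psmc6 (chr14:45329574-45329650, plus strand): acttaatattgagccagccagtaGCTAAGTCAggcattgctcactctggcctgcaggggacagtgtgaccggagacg

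No subunit gene passed the test of KO against cKO. With limma and an adjusted p under 0.05, 0 of 35 tested members were called, against 2.16% of all 10916 genes tested (0.623% higher and 1.54% lower in KO). At an unadjusted p under 0.05 the count was 1 of 35, against 13.9% of all genes. Apart from Psma8, which is described further on, the other 34 log2 fold changes lay between -0.23 and 0.27, with adjusted p from 0.416 to 0.995 in limma. These limits rested on the arrays and probe sets used. They were -0.44 (Psmc5) to 0.39 (Psmc2) without cKO line 1 and -0.13 (Psmd3) to 0.31 (Psmd10) without cKO line 2. Without KO line 1 they were -0.21 to 0.34, and without KO line 2 -0.47 (Psmd13) to 0.23 (Psmc2). With all probe sets of a gene averaged, also those below the filter level, the highest was 0.63 (Psmc1). The other Psmc1 probe set was such a dim one, with a mean signal of 15.1. Of the 34 genes 2 had an unadjusted p under 0.05 in limma with averaged probe sets, against 0 as reported. The count was 5 when same line numbers were treated as pairs, which the labels do not give. The shares of all tested genes at that level were not computed for these fits. At an adjusted p under 0.05 in limma, 130 genes over all were called with averaged probe sets and 1107 with pairs, against 236 as reported. The difference was under 1.2-fold for 33 of 35 members, against 65.7% of all tested genes and 83.8% of the brightest 25% of them, a threshold chosen after the values were seen.

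The intervals describe the probe set used and not the gene, since further bright probe sets of Psmc4, Psmb4, Psmd6, Psmc2 and Psmd11 gave values outside them. The 95% interval of limma lay inside a 2-fold change in either direction for 34 of 35 members and inside a 1.5-fold change for 31 of 35. Over all tested genes these shares were 79.0% and 41.9%, and over the brightest 25% 96.0% and 78.2%. The members' probe sets were bright, with 28 of 35 in the upper 10% and 32 of 35 in the upper 25% of tested genes by mean signal. Their mean signal ran from 477 for Psma8 to 15912 for Psmb7. Signals of different probe sets do not compare transcript levels between genes, and bright probe sets may understate differences.

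**Figure D1:**
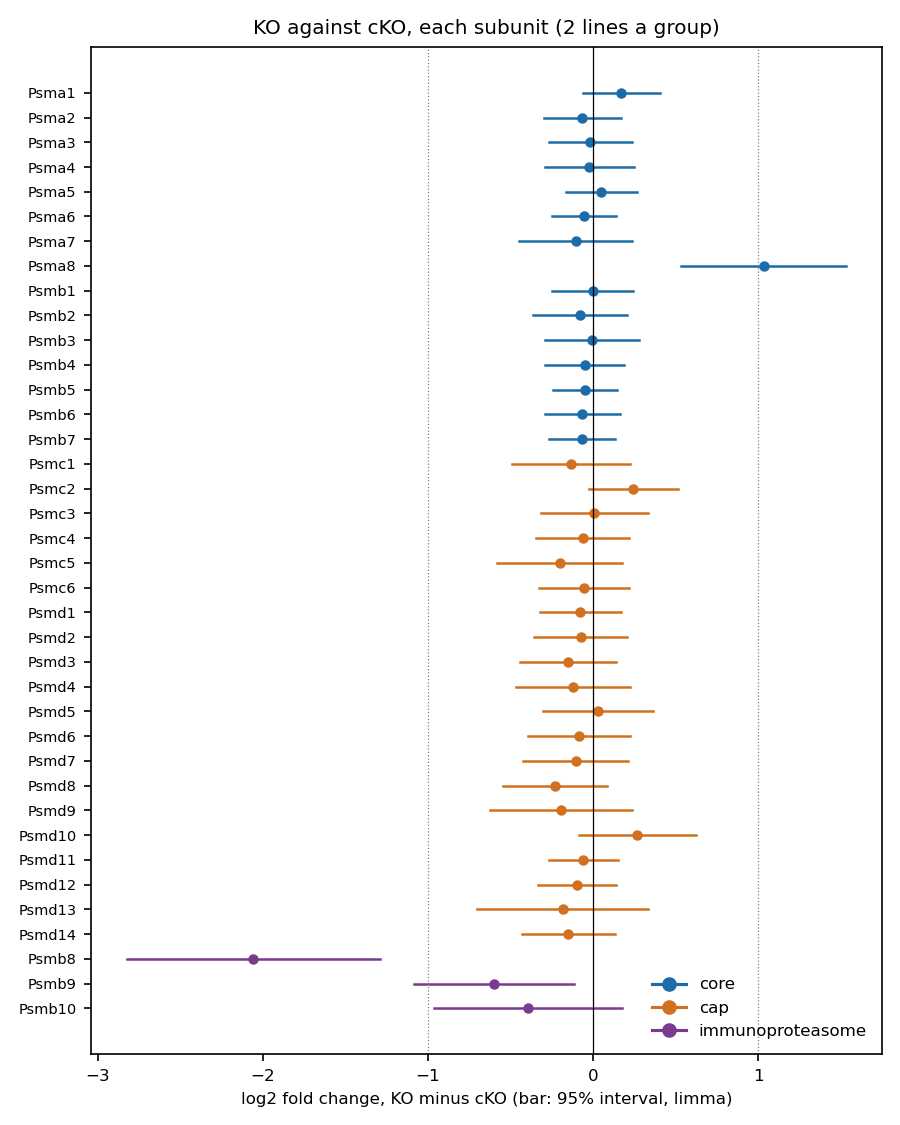
Log2 fold change of KO over cKO (horizontal axis) for the 35 tested subunit genes and the 3 immunoproteasome genes, with the 95% interval from limma and dotted lines at a 2-fold change (2 lines per group). The core and cap genes gather near 0 except Psma8 at 1.03, while Psmb8, whose KO signals are below the filter level, lies at -2.06.

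No alpha ring gene was called. Psma1 read 6369 and 6508 in cKO against 7201 and 7303 in KO. Both KO values were above both cKO values, by 0.17 in log2 (SE 0.10, adjusted p = 0.534 in limma). Psma6 read 12921 and 12950 in cKO against 12793 and 12097 in KO, with both KO values below, at -0.06 (SE 0.08). Psma2, Psma3, Psma4, Psma5 and Psma7 overlapped between the groups, with log2 fold changes from -0.11 for Psma7 to 0.05 for Psma5. For Psma7 the lines of a group stood further apart than the groups did, at 7751 and 8744 in cKO against 6714 and 8720 in KO.

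No active-site gene of the beta ring was called. Psmb5, which encodes the chymotrypsin-like subunit, read 11786 and 12203 in cKO against 11468 and 11713 in KO, a log2 fold change of -0.05 (SE 0.08, 95% interval -0.25 to 0.15). Psmb6, the caspase-like subunit, read 10829 and 12214 in cKO against 10727 and 11257 in KO, or -0.07 (SE 0.10, 95% interval -0.29 to 0.16). Psmb7, the trypsin-like subunit, read 16253 and 16304 in cKO against 16413 and 14677 in KO, or -0.07 (SE 0.09, 95% interval -0.27 to 0.13). Both KO values of Psmb5 lay just below both cKO values, and the groups overlapped for Psmb6 and Psmb7.

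The structural beta subunits Psmb1, Psmb2, Psmb3 and Psmb4 overlapped between the groups, with log2 fold changes from -0.08 for Psmb2 to -0.00 for Psmb1. Psmb1 read 8538 ± 464 in cKO against 8529 ± 632 in KO (SD, n = 2 per group). Psmb4 read 14326 ± 1351 in cKO and 13814 ± 1057 in KO. All 7 beta ring genes had a negative value, down to -0.08. Single arrays decided this, since Psmb2 was at -0.18 without KO line 2 and Psmb3 at 0.12 without cKO line 2 and 0.09 without KO line 1. Psmb11 read 39.0 and 33.5 in cKO against 43.7 and 28.2 in KO, below the filter level of 81.1, so no difference could be seen in it.

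In the cap, no ATPase gene was called. Psmc2 read 10580 and 8702 in cKO against 11259 and 11476 in KO. The KO values were above both cKO values, at 0.24 (SE 0.11, adjusted p = 0.416 in limma), with cKO line 2 the low array. Without cKO line 1 the value was 0.39 and without cKO line 2 it was 0.10. The next brightest probe set of Psmc2 went the other way, at -0.08. Psmc5 read 6399 and 8860 in cKO against 6317 and 6791 in KO, at -0.20 (SE 0.16), with cKO line 2 standing above the other 3 arrays. It was -0.44 without cKO line 1 and 0.03 without cKO line 2. Psmc1, Psmc3, Psmc4 and Psmc6 overlapped between the groups, from -0.13 for Psmc1 to 0.01 for Psmc3. Psmc1 was at 0.63 (adjusted p = 0.277 in limma) with its probe sets averaged. That average took in a probe set with a mean signal of 15.1, below the filter level.

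The non-ATPase genes had a median of -0.10. Psmd8, a lid subunit, read 5437 and 6681 in cKO against 4944 and 5343 in KO, at -0.23 (SE 0.13, adjusted p = 0.542 in limma), the lowest of the members with all 4 arrays. Without cKO line 2 it was -0.08, and without cKO line 1 it was -0.38, where Psmc5 was lower. Psmd14, the deubiquitinase that cuts ubiquitin from the substrate, read 12148 and 13789 in cKO against 10593 and 12826 in KO, at -0.15 (SE 0.12). Psmd4, a ubiquitin receptor, read 7920 ± 1390 in cKO against 7236 ± 747 in KO (SD, n = 2 per group), at -0.12 (SE 0.15). The groups overlapped for Psmd14 and Psmd4 and did not for Psmd8.

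The scaffold subunits Psmd1 and Psmd2 each gave -0.08. Psmd1 read 6624 and 6300 in cKO against 6285 and 5972 in KO, so that KO line 1 lay only just below cKO line 2. The lid genes Psmd3, Psmd11 and Psmd12 were also lower in both KO lines than in both cKO lines, at -0.15, -0.06 and -0.10. Psmd6, Psmd7 and Psmd13 overlapped, at -0.08, -0.11 and -0.18. Psmd13 had the widest spread between lines of the cap genes, at 3086 and 4074 in cKO against 2561 and 3800 in KO, and its 95% interval ran from -0.70 to 0.33.

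Psmd5, Psmd9 and Psmd10 encode chaperones that help to assemble the ATPase ring and are not part of the finished particle. Psmd10 (gankyrin), the only member on the X chromosome, read 1081 and 1154 in cKO against 1283 and 1411 in KO. Both KO values were above both cKO values, at 0.27 (SE 0.15, adjusted p = 0.528 in limma). Psmd9 gave -0.19 (SE 0.18) and Psmd5 0.03 (SE 0.14), both with overlapping groups.

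Counted over the list, separation of the groups was no more common among the subunits than elsewhere. The KO values did not overlap the cKO values for 11 of 35 members, against 42.7% of all tested genes. These were Psma1, Psma8, Psmc2 and Psmd10, higher in KO (4 of 35, against 21.4%), and Psma6, Psmb5, Psmd1, Psmd3, Psmd8, Psmd11 and Psmd12, lower (7 of 35, against 21.3%). The group difference exceeded the difference between the lines of both groups for 5 of 35 members, namely Psma1, Psma8, Psmd1, Psmd3 and Psmd10, against 31.7% of all tested genes.

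Both the core and the cap had a small negative median, and the difference between them was not tested. The median log2 fold change was -0.05 over 15 core genes and -0.09 over 20 cap genes, against 0.01 over all tested genes and -0.02 over the brightest 25%. Negative values were found for 12 of 15 core genes and 16 of 20 cap genes, 28 of 35 in all, against 48.7% of all tested genes and 55.5% of the brightest 25%. Without Psma8, Psmd5, Psmd9 and Psmd10, an alternative chosen after the values were seen, the medians were -0.05 for the core and -0.10 for the cap. The core median minus the cap median was 0.04. This gap turned to -0.043 when all probe sets of a gene, also those below the filter level, were averaged instead of taking the brightest. With probe sets above a signal of 56.8 taken singly it was 0.046. Averaging moved the members' median from -0.07 to 0.01. The members' median was also positive without cKO line 2 (0.02) and without KO line 1 (0.02), so the sign of the shift rested on single arrays.

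By array, the median log2 deviation of the core genes from their own means was -0.05 and 0.10 in cKO against -0.07 and 0.06 in KO. For the cap it was -0.05 and 0.14 against -0.10 and 0.05. Core and cap medians had the same sign on every array, and their gap on any array was at most 0.04 in size. The cap genes were the more variable, with a median SD over the 4 arrays of 0.15 in log2, against 0.10 for the core, 0.20 for all tested genes and 0.14 for the brightest 25%.

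**Figure D2:**
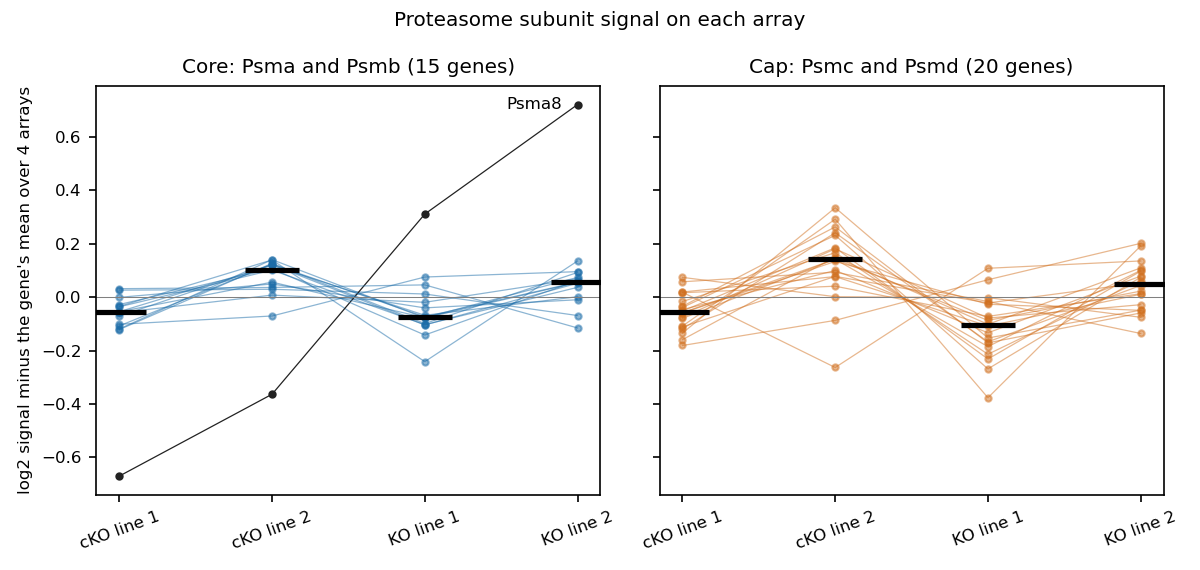
Log2 signal of each subunit gene minus its own mean over the 4 arrays (vertical axis), by array, for 15 core genes (left) and 20 cap genes (right); thin lines join the values of a gene and the thick bars are medians. The medians are higher in line 2 than in line 1 within both groups, and Psma8 alone separates KO from cKO widely.

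The subunits also differed between lines 1 and 2 of a group, which is described here without a test. Line 2 read above line 1 in both groups for 29 of 35 members, against 33.7% of all tested genes and 50.8% of the brightest 25%. This held for 13 of 15 core and 16 of 20 cap genes. Line 2 read below line 1 in both groups for 1 of 35, Psmd1, against 37.3% of all tested genes and 25.1% of the brightest 25%. These shares changed with brightness. Of the members 28 of 35 lay in the upper 10% by signal, a set for which the shares were not computed. The line numbers are the labels' names of the lines, and nothing in the labels ties cKO line 1 to KO line 1.

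The median log2 difference of line 2 over line 1 was 0.18 among the cKO lines and 0.13 among the KO lines. Over all tested genes it was -0.00 and -0.02, and over the brightest 25% 0.08 and 0.07. Among single members the largest differences were those of Psmd13 (0.40 in cKO and 0.57 in KO), of Psmc5 within cKO (0.47) and of Psma8 within KO (0.41). Psmc2 was the clearest exception, with line 2 lower by -0.28 in cKO and equal within 0.03 in KO. The median signal of all probe sets differed in the opposite sense, at 76.6 and 81.6 in the 2 lines numbered 1 against 64.4 and 64.9 in those numbered 2, and its part in this pattern was not tested. Quantile normalization left 23 of 35 members higher in line 2 in both groups (38.7% of all tested genes), and centring on the median gave 30 of 35 (36.8%). The lowest count, 21 of 35 (25.9%), came with averaged probe sets. Shares over bright genes alone were not computed under these alternatives.

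**Figure D3:**
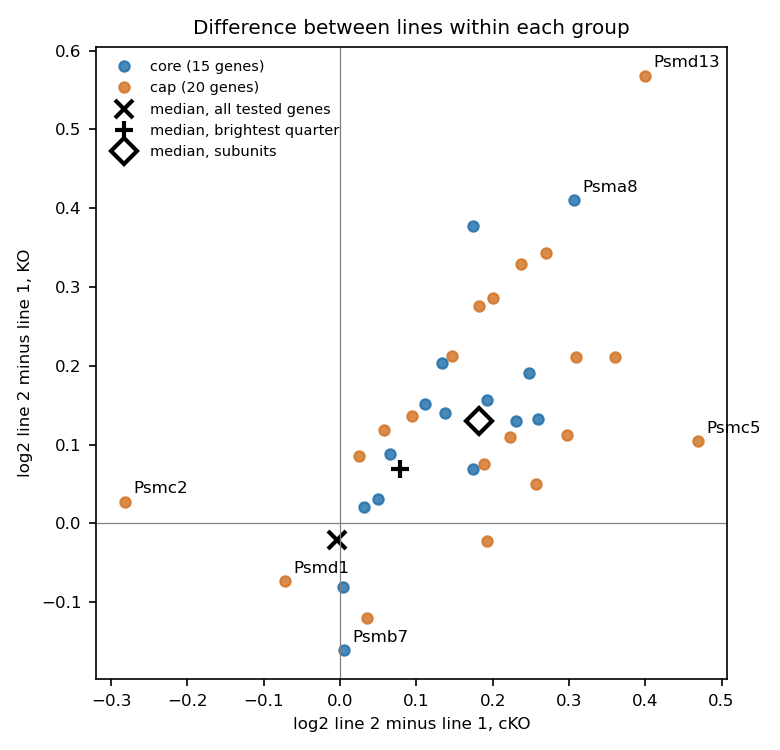
Log2 signal of line 2 minus line 1 within cKO (horizontal axis) and within KO (vertical axis), 1 point per subunit gene, with medians of the subunits, of all tested genes and of the brightest 25%. Most points, 29 of 35, lie in the upper right quadrant, where line 2 is higher in both groups.

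Psma8 was the exception among the subunits. It encodes a close relative of the alpha subunit Psma7 and is known from the testis, where it replaces that subunit in germ cells. Its only probe set read 277 and 344 in cKO against 551 and 734 in KO. Both KO values were above both cKO values, and in each group line 2 was the higher. The mean was 310 ± 47.2 in cKO against 643 ± 129 in KO (SD, n = 2 per group), 2.07-fold higher in KO, and the log2 fold change was 1.03 (SE 0.21, 95% interval 0.53 to 1.53).

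In limma the unadjusted p of Psma8 was 0.00175, and after adjustment over all tested genes (adjusted p = 0.0636) it was not called. The change was 0.98 between the lines numbered 1 and 1.08 between those numbered 2. It was called when cKO line 2 was left out (1.19, adjusted p = 0.0456 in limma), and also when KO line 1 was (1.24, adjusted p = 0.00882). Leaving out cKO line 1 gave 0.88 (adjusted p = 0.138), and leaving out KO line 2 gave 0.83 (adjusted p = 0.128). Psma7, which this gene resembles, gave -0.11 with overlapping groups. Whether the Psma8 probes take up transcripts of Psma7 was not tested.

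The immunoproteasome genes encode replacements for the active-site subunits that interferon induces, and were set beside their constitutive partners. All 3 had negative values, and 1 was called lower. Psmb8, the partner of Psmb5, read 195 and 212 in cKO against 52.3 and 39.0 in KO, a difference of -2.06 in log2 (SE 0.32, adjusted p = 0.0301 in limma), against -0.05 for Psmb5. It passed the filter only through the cKO lines, and its KO signals lay below the filter level, so neither the call nor its size is firm. The call was lost when cKO line 1 (adjusted p = 0.103) or cKO line 2 (0.134) was left out and when no filter was used (0.0632). Averaging its probe sets gave -1.38 (adjusted p = 0.149).

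Psmb9, the partner of Psmb6, read 288 and 311 in cKO against 212 and 181 in KO, at -0.60 (SE 0.21, adjusted p = 0.249), with separate groups. Psmb10, the partner of Psmb7, read 1588 and 2429 in cKO against 1284 and 1735 in KO, at -0.39 (SE 0.24, adjusted p = 0.569), with overlapping groups. This value was -0.70 without cKO line 1, -0.09 without cKO line 2 and -0.18 without KO line 1. The differences between each pair of partners were not tested.

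The proteasome activators bind the barrel in place of the cap. Of 5 listed genes, 4 had a probe set of their own, and none was called. Psme1, a subunit of the interferon-induced activator, read 4226 and 4797 in cKO against 3336 and 3706 in KO, with both KO values below, at -0.36 (SE 0.13, adjusted p = 0.282 in limma). Psme3, which forms the nuclear activator, gave -0.40 (SE 0.19, adjusted p = 0.405), also with both KO values below. Psme4 gave 0.16 (SE 0.11) and the inhibitor Psmf1 0.07 (SE 0.15). Psme2 was not analysed here, as its probe set names more than 1 gene.

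**Figure D4:**
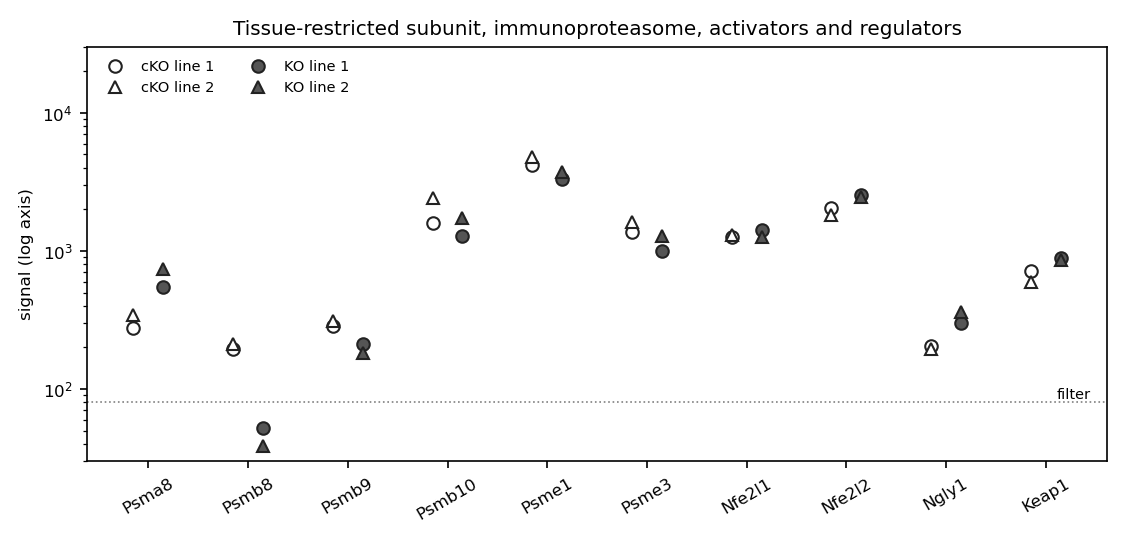
Signal on a log axis of Psma8, the immunoproteasome genes, the activators Psme1 and Psme3 and regulators of subunit transcription, on each array (open symbols cKO, filled KO; circles line 1, triangles line 2; the dotted line is the filter level of 81.1). The KO symbols of Psma8 lie above and those of Psmb8 below all cKO symbols.

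No gene that assembles or serves the proteasome passed the test on the further lists. Of 5 assembly chaperones all were tested and none was called, with log2 fold changes from -0.14 for Pomp, the maturation protein of the core, to 0.14 for Psmg4 (median -0.05). Psmg4 was at 0.42 with averaged probe sets, and Psmg3 at -0.35 without cKO line 1 and -0.32 without KO line 2. Of 5 further cap proteins 4 were tested and none was called, with a median of -0.12. Among these, Ecpas, a scaffold protein that binds the proteasome, had the smallest p and read 456 and 443 in cKO against 261 and 379 in KO, at -0.51 (SE 0.22, adjusted p = 0.372 in limma). It was -0.11 (adjusted p = 0.932) with its probe sets averaged, -0.24 without KO line 1 and -0.77 without KO line 2. Of 7 genes of ubiquitin activation and shuttling 5 were tested and none was called. Ubqln4, a shuttle that carries ubiquitylated proteins, had the smallest p there, at -0.36 (SE 0.16, adjusted p = 0.401). The 4 ubiquitin genes had no probe set naming them alone and were not analysed here.

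The factors that raise subunit transcription were measured as well. Nfe2l1 (NRF1) read 1268 and 1303 in cKO against 1419 and 1270 in KO, at 0.06 (SE 0.15, adjusted p = 0.916 in limma), with overlapping groups. Nfe2l2 (NRF2), which activates antioxidant genes, read 2059 and 1824 in cKO against 2553 and 2457 in KO, at 0.37 (SE 0.14, adjusted p = 0.299), with both KO values above. Ngly1, the deglycosylase that processes NRF1, read 204 and 195 in cKO against 299 and 362 in KO, at 0.71 (SE 0.20, adjusted p = 0.168). Keap1, the inhibitor of NRF2, gave 0.41 (SE 0.16, adjusted p = 0.324). None of the 4 tested genes was called, and all 4 values were positive except that of Nfe2l1 (-0.02) without KO line 1. When probe sets were averaged, Nfe2l2 alone passed (1.31, adjusted p = 0.0403 in limma). That average took in 2 probe sets, of which the brightest gave 0.37, so its size rested on the other, whose signal is not given here. With same line numbers treated as pairs, which the labels do not give, Nfe2l2 (adjusted p = 0.0467) and Ngly1 (adjusted p = 0.0496) passed in limma.

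In the promoter stretches printed above, the match began at -47 from the start in Psmb5, at -9 in Psmb6 and at -31 in Psmd9. Read along the gene's strand, it began further out in Psmd12 (-247) and Psmc6 (-227), where TGACNNNGC lies on the opposite strand. The log2 fold changes of these genes were -0.05, -0.07, -0.19, -0.10 and -0.05 in the order Psmb5, Psmb6, Psmd9, Psmd12 and Psmc6. None was called, and all lay within the range of the members without a match.

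Other probe sets of the subunits did not always follow the brightest. Of the 36 genes 17 had a single probe set, and 17 had 27 further probe sets above the filter level. Only 11 of these 27 had the sign of the one used, and their log2 fold changes ran from -0.24 to 0.65. Of the 14 with a mean signal of at least 1000, 6 had the same sign. Tested on their own, 64 member probe sets gave 0 calls in limma, where 243 probe sets over all were called. An unadjusted p under 0.05 was found for 4 of the 64. The share of all probe sets under that level was not computed for this fit, and with 1 probe set per gene it was 13.9% of all tested genes.

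The widest disagreement among bright probe sets was in Psmc4. Its brightest read 6054 and 7062 in cKO against 6022 and 6498 in KO (-0.06), with overlapping groups. A dimmer probe set of the same gene read 3281 and 2531 in cKO against 4366 and 4259 in KO, at 0.58 (SE 0.15, adjusted p = 0.169 in limma), with both KO values above. For Psmb4 the further probe set gave 0.33 (adjusted p = 0.392) against -0.05, and for Psmd6 0.25 (adjusted p = 0.58) against -0.08. The probe sets of Psma6, Psmc2 and Psmd11 used here and the further one of Psmb4 are of the kind whose probes may take up related transcripts, and this was not tested.

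**Figure D5:**
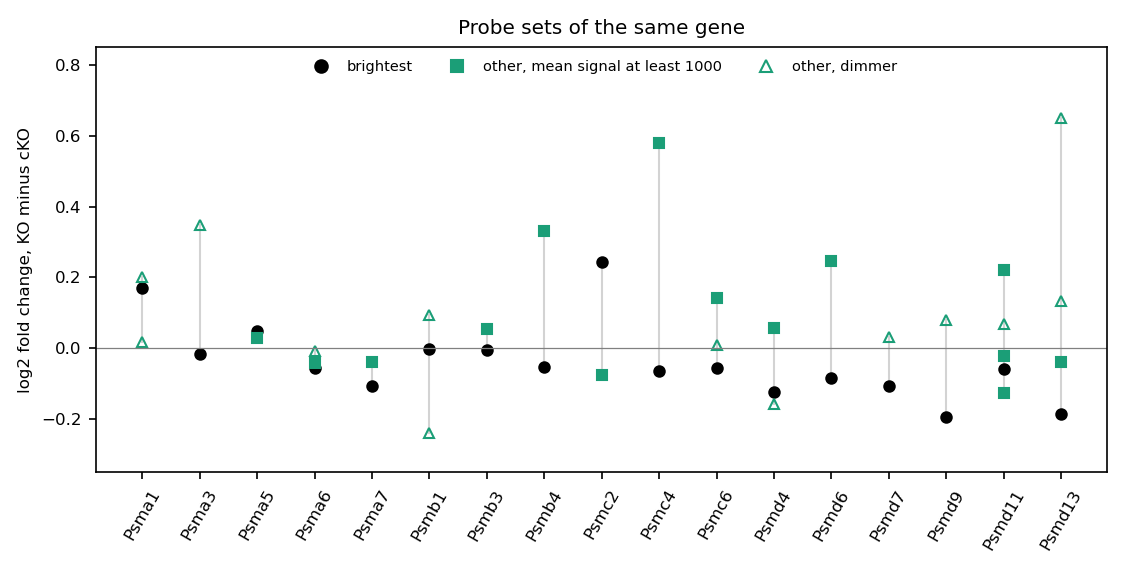
Log2 fold change of KO over cKO (vertical axis) for every probe set above the filter level of the 17 subunit genes with more than 1 such probe set. Black circles mark the brightest, filled squares the others with a mean signal of at least 1000 and open triangles the dimmer ones, and Psmc4 shows the widest gap between bright probe sets, -0.06 against 0.58.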

How the data were processed

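Each deposited table holds 1 linear intensity for every probe set of an array, and the submitters' processing notes name MAS5 as the tool. Its version and settings are not given in the sources used here. Every array had a mean of 500 once the outer 2% at both ends were trimmed. Of 45101 probe sets, 34945 named 1 gene in the platform annotation, and symbols were updated through Entrez identifiers in RefSeq (GRCm38.p6). The brightest probe set stood for a gene, and 7277 genes below a signal of 81.1 were left out. Where probe sets of a gene were averaged instead, those below that level were averaged too. A pseudocount of 4.79, the 10th percentile over the arrays, was added before log2, which understates changes of dim genes. All 10916 genes were fitted with limma 3.58.1 in R 4.3.3 (eBayes with a variance trend, 2 residual and 5.08 prior degrees of freedom) with Benjamini-Hochberg adjustment. Every member is named; the immunoproteasome, activator and transcription factor lists are named whole, and other lists by called genes or the smallest p. The procedure was tested on simulated data with independent noise on every array, and the share of changes it recovered is not given here. Members and lists were chosen with earlier results of these data known. Summaries used Python 3.11.15 with pandas 2.3.3.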

Additional observations from a re-analysis of the deposited data

How the results depend on the processing

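The medians of all members, of the core and of the cap moved by less than the spread between lines under every alternative that gave them, and ran from -0.15 to 0.02, -0.13 to 0.04 and -0.17 to 0.02 with 1 array left out. Their difference, 0.04, ran from 0.03 to 0.06 with 1 array left out. It was -0.043 when probe sets were averaged, dim ones included, where 11 of 35 members changed sign. Without cKO line 2, 15 of 35 members changed sign, and without KO line 1, 12. The count of called members was 1 (Psma8) at an adjusted p under 0.1 and 0 to 1 with 1 array left out, where the lone line is assumed to vary like the other group. Over all genes 236 were called, 147 without a filter, 130 with averaged probe sets, 32 without the variance trend, 431 at an adjusted p under 0.1 and 207 to 438 with 1 array left out, the most without KO line 1. Of the related lists 1 gene was called (Psmb8), 0 without a filter, 0 with a filter on the lower 60%, where Psmb8 was not tested, and 0 to 1 with 1 array left out. Averaged probe sets gave 1, which was Nfe2l2 in place of Psmb8. With the line number as a replicate block, 1 member (Psma8, adjusted p = 0.0068), 5 related genes and 1107 genes over all were called. The labels do not pair the lines. The deviations of same-numbered lines from their group means correlated at r = 0.518 over the genes tested. With 2 lines in a group the deviations of line 2 mirror those of line 1. Pairing the lines the other way therefore gives the same r with its sign reversed. Other pseudocounts, other filters, quantile normalization, centring, averaged or separate probe sets and a fit without the variance trend left the count of called members at 0. The number of arrays limits the precision of every value. The cause of these changes was not tested.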
